A study of Mus musculus with 6 samples.

Results

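The transforming growth factor beta (TGF-β) ligands, their receptors and endoglin were examined in bulk RNA-seq of primary somatosensory (S1) cortex with and without whisker stimulation. The group held 8 genes chosen by symbol, namely Tgfb1, Tgfb2, Tgfb3, Tgfbr1, Tgfbr2, Tgfbr3, Eng and Acvrl1, and all 8 were among the 14824 genes of the deposited table. The 3 WS samples came from WT mice of the labelled strain C57B6 at postnatal day 21, 90 minutes after the last of 8 days of whisker stimulation. The 3 NS samples, titled NW control, came from mice of the same genotype, strain and age with no treatment. The study's stimulation scheme brushed the whiskers of a single side and used the cortex on the side without stimulation as the control, but the labels do not tie any NS sample to a WS sample of its own animal. RNA was accepted above a RIN of 2, and p-values measure the spread between these samples.

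TGF-β is secreted in a latent form, bound to its own propeptide and to latent TGF-β binding proteins, and is released at the cell surface by integrins or proteases. The active ligand assembles type II and type I receptors, which phosphorylate SMAD proteins that enter the nucleus. In vessels, endoglin and the type I receptor encoded by Acvrl1 carry signals of the BMP branch, while Tgfbr1 carries the TGF-β branch. Loss-of-function variants of the human genes of endoglin or Acvrl1 cause hereditary haemorrhagic telangiectasia, a disorder of vessel malformation. In the brain, endothelial cells are known for Eng, Acvrl1 and Tgfbr2, and microglia for Tgfb1 and Tgfbr1.

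WS was compared with NS, in a study of vessel formation driven by neural activity, to ask which transcripts differ in the cortex after stimulation. None of the 8 genes was called at the study's thresholds, which ask for an adjusted p below 0.05 together with a log2 fold change beyond 1 (0 of 8 by edgeR's quasi-likelihood test, and 0 of 8 by DESeq2), where 0.0291% of the 13747 tested genes were called higher in WS and 0% lower. The estimates were small, between -0.11 for Tgfbr3 and 0.27 for Eng on the log2 scale, and 7 of the 8 were above 0, although the sign turned for 4 of the 8 (Tgfb2, Tgfb3, Tgfbr1 and Tgfbr3) when 1 library was left out. Their median was 0.08, against 0.0074 over all tested genes, of which 53.0% were above 0. Eng alone had an unadjusted p under 0.05 (1 of 8 by edgeR and 1 of 8 by DESeq2), with 0.866% of all tested genes below that p and higher in WS, and 0.327% below it and lower. Eng was also the only gene of the 8 with every WS library above every NS library, which 3.11% of all tested genes showed. No gene of the 8 had every WS library below every NS library, which 3.16% of tested genes showed. The 95% intervals of the 8 log2 fold changes together spanned -0.45 to 0.56, that is from 0.73-fold to 1.48-fold, so changes of 2 fold or more lay outside the interval of each gene.

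**Figure D1:**
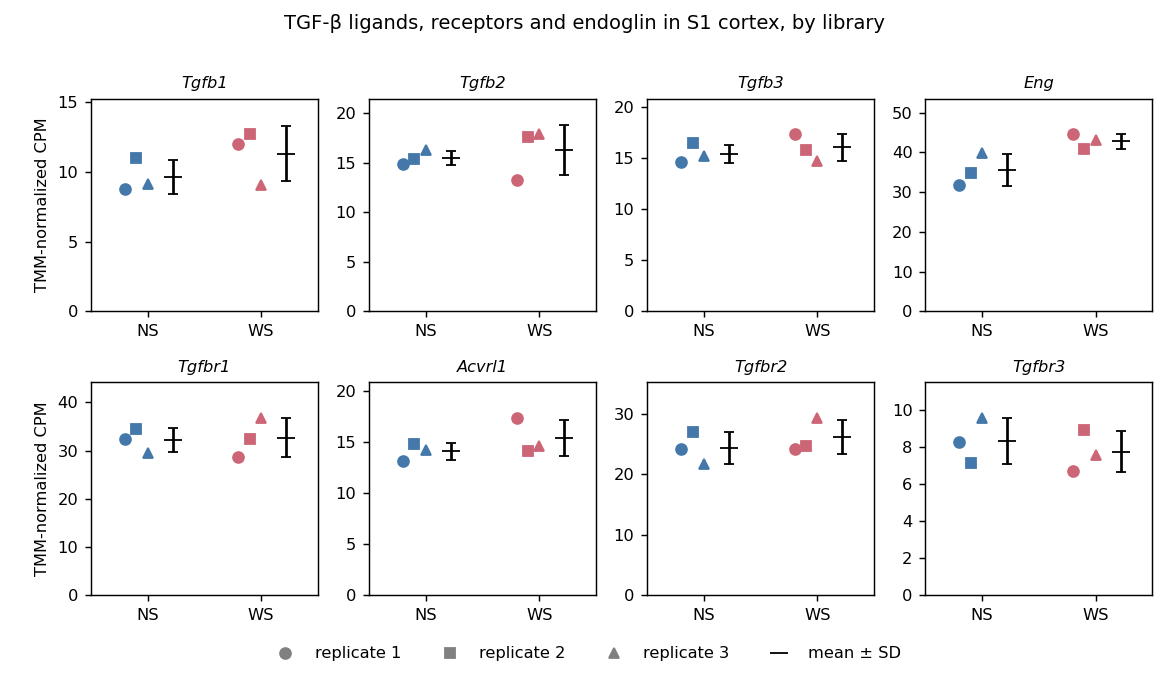
TMM-normalized CPM (vertical axis, from 0) of each gene in the 3 NS and the 3 WS libraries, with a symbol for each replicate number and the mean ± SD of 3 libraries in black. The 3 WS values of Eng, between 40.8 and 44.6, sit above the 3 NS values, which reach 39.8, and the groups overlap in the other 7 genes.

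Eng encodes endoglin, a co-receptor of endothelial cells that presents ligands of the BMP and TGF-β families to the type I receptor of Acvrl1. The gene lies on chromosome 2 of GRCm38 (32646595 to 32682669, plus strand, GENCODE M21). Its level was 31.9, 34.8 and 39.8 CPM (counts scaled to a common library size after TMM normalization) in NS replicates 1, 2 and 3. In WS replicates 1, 2 and 3 it was 44.6, 40.8 and 43.1 CPM. The lowest WS value was above the highest NS value, and WS exceeded NS in 3 of 3 same-numbered pairs. The NS mean was 35.5 ± 4.0 CPM (SD, n = 3) and the WS mean 42.8 ± 1.91 CPM (SD, n = 3), which is 20.5% higher. The log2 fold change was 0.27 (standard error 0.102, 95% interval 0.05 to 0.49, Benjamini-Hochberg adjusted p = 0.9998 by edgeR's quasi-likelihood test). Over the libraries alone, the exact permutation test gave a two-sided p of 0.1, the smallest that 3 against 3 allow. Without NS replicate 1 the log2 fold change was 0.2 and the unadjusted p of edgeR's fit across all genes rose to 0.112, and without NS replicate 2 they were 0.25 and 0.0538. In the annotation Eng overlaps Fpgs on the other strand, whose own level was 4.94 ± 0.141 CPM (SD, n = 3) in NS and 5.02 ± 0.526 CPM (SD, n = 3) in WS.

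Tgfb1 encodes the ligand for which the family is named, and had the next largest estimate. It lies on chromosome 7 (25687002 to 25705077, plus strand). It measured 8.76, 11.0 and 9.13 CPM in the NS libraries and 12, 12.7 and 9.03 CPM in the WS libraries, in replicate order. WS replicates 1 and 2 were above every NS library, while WS replicate 3 lay among them. The log2 fold change was 0.22 (standard error 0.155, 95% interval -0.11 to 0.56, adjusted p = 0.9998 by edgeR's quasi-likelihood test). Single libraries moved this value in both directions, to 0.12 without WS replicate 2 and 0.16 without NS replicate 1 (unadjusted p of the same fit 0.503 and 0.386), and to 0.33 without NS replicate 2 and 0.36 without WS replicate 3 (0.0837 and 0.0233). The summed level of 10 microglia markers was 508 to 534 CPM in NS and 540 to 559 CPM in WS, and its part in the Tgfb1 values was not tested.

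The sequences before the start of Eng and Tgfb1 are shown because these genes had the largest estimates. Each run holds the 250 bases before the gene's start in RefSeq on GRCm38.p6, 5′ to 3′ on the gene's strand, with capitals marking CAGAC or its reverse complement GTCTG, which hold the core letters of the SMAD binding element.
Eng, chr2:32646345-32646594: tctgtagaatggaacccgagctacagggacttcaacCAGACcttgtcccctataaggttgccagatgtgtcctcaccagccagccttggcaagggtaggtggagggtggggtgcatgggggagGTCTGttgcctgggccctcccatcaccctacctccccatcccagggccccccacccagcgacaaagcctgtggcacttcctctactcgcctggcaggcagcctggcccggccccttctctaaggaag
Tgfb1, chr7:25686752-25687001: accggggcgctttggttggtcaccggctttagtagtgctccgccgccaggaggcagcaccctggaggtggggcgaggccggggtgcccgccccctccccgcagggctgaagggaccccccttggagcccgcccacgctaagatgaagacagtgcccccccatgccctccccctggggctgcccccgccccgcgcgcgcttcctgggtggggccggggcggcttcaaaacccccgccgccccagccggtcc
The Eng window held 2 matches and the Tgfb1 window 0, and 42.2% of all 32851 windows of this length in the RefSeq table held at least 1. The table held 6 windows for 5 of the genes, and 4 of the 6 had a match. Tgfb3, Tgfbr3 and Acvrl1 had no entry.

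The other ligands, Tgfb2 and Tgfb3, bind the same receptors, and Tgfb2 needs the co-receptor of Tgfbr3 for high-affinity binding. Tgfb2 (chromosome 1, 186622792 to 186705989, minus strand) had 14.9, 15.4 and 16.3 CPM in NS and 13.3, 17.6 and 17.9 CPM in WS. Its WS libraries spread wider than its NS libraries, with WS replicate 1 the lowest of the 6 and the other WS libraries the highest. The log2 fold change of 0.07 (95% interval -0.21 to 0.34) was -0.00244 without WS replicate 2, -0.00554 without WS replicate 3 and 0.19 without WS replicate 1. Tgfb3 (chromosome 12, 86056745 to 86079041, minus strand) had 14.6, 16.4 and 15.2 CPM in NS and 17.3, 15.8 and 14.7 CPM in WS, with a log2 fold change of 0.05 (95% interval -0.18 to 0.29) that was -0.00876 without WS replicate 1. Here WS replicate 1 was the highest and the rest of WS lay within the NS range. Tgfb3 overlaps Ttll5 on the other strand, which had 37.6 ± 3.05 CPM (SD, n = 3) in NS and 38.7 ± 2.66 CPM (SD, n = 3) in WS.

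Per kilobase of merged exons, which allows levels to be compared between genes, Tgfb3 was the most abundant ligand. Before division by length, Tgfb3 and Tgfb2 were nearly level, at 15.4 and 15.5 CPM on average in NS. Their order therefore rests on merged exon lengths of 3383 and 5791 bases. In NS Tgfb3 made up 49.7% ± 0.46 (SD, n = 3) of the summed ligand level, and in WS 48.3% ± 3.4 (SD, n = 3). The share of Tgfb2 was 29.4% ± 1.7 in NS and 28.9% ± 5.0 in WS, and Tgfb1 took 20.9% ± 1.5 and 22.8% ± 2.9 (n = 3 libraries a group, SD). Single libraries of WS departed more from these means, since WS replicate 1 had 23.5% Tgfb2 and WS replicate 3 had 33.4%. The exact permutation test gave two-sided p-values of 0.5, 0.8 and 0.4 for Tgfb3, Tgfb2 and Tgfb1, and 0.9 each when adjusted by Benjamini-Hochberg over the 9 shares and ratios tested.

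The signalling receptors gave estimates between 0.02 and 0.13, and in each of them the range of the WS libraries overlapped that of NS. Tgfbr1 (chromosome 4, 47353222 to 47414931, plus strand), the type I receptor of TGF-β, had 32.5, 34.5 and 29.6 CPM in NS and 28.6, 32.5 and 36.8 CPM in WS. The lowest and the highest value both belonged to WS, and the log2 fold change of 0.02 (95% interval -0.22 to 0.27) turned to -0.0357 when NS replicate 3 was left out, and to -0.0734 without WS replicate 3. Acvrl1 (chromosome 15, 101128522 to 101145336, plus strand), the endothelial type I receptor, had 13.2, 14.8 and 14.2 CPM in NS and 17.4, 14.1 and 14.6 CPM in WS. Only WS replicate 1 lay above the NS range, and the log2 fold change of 0.13 (95% interval -0.13 to 0.38) was 0.0292 without that library. Tgfbr2 (chromosome 9, 116084293 to 116175360, minus strand), the type II receptor shared by the 3 ligands, had 24.1, 27.0 and 21.7 CPM in NS and 24.1, 24.7 and 29.3 CPM in WS. WS replicate 3 was the highest of the 6, and the log2 fold change of 0.1 (95% interval -0.15 to 0.35) was 0.00839 without it. The log2 ratio of Acvrl1 to Tgfbr1, the alternative type I receptors, averaged -1.19 in NS and -1.09 in WS (two-sided exact permutation p = 0.8, n = 3 each), and ranged from -1.34 to -0.72 among the WS libraries.

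Tgfbr3 encodes betaglycan, the co-receptor that shares part of its structure with endoglin, and was the only gene of the 8 with an estimate below 0. It lies on chromosome 5 (107106570 to 107289629, minus strand) and had 8.26, 7.12 and 9.57 CPM in NS and 6.69, 8.91 and 7.58 CPM in WS. Values of both groups were interleaved, and the log2 fold change of -0.11 (95% interval -0.45 to 0.24) turned to 0.00676 when NS replicate 3 was left out, and was -0.23 without WS replicate 2. With counts of 113 to 154 per library, counting error alone gives a coefficient of variation of 8.79%, against 14.7% observed in NS and 14.4% in WS. The log2 ratio of Eng to Tgfbr3 was 2.1 ± 0.17 in NS (SD, n = 3) against 2.48 ± 0.27 in WS (SD, n = 3). The groups overlapped, with WS replicate 2 at 2.19 below NS replicate 2 at 2.29, and the two-sided exact permutation p was 0.2 (0.9 when adjusted over the 9 values).

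**Figure D2:**
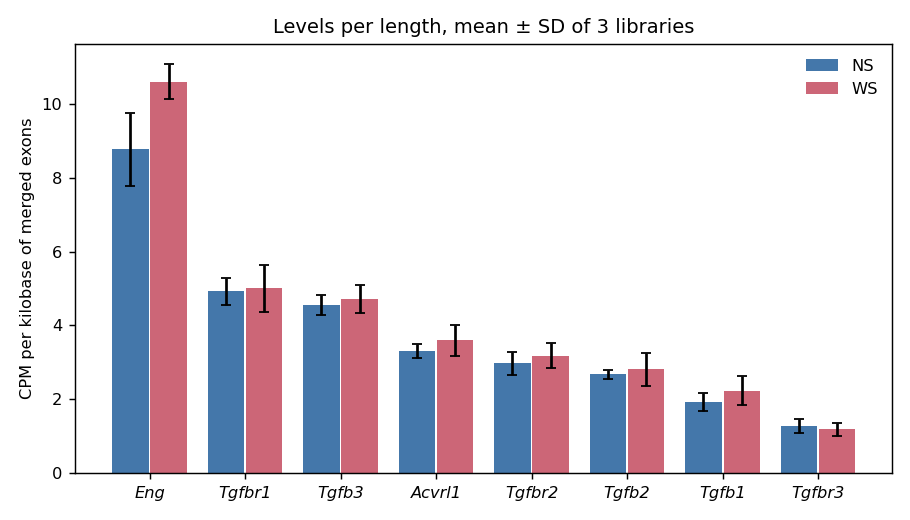
Mean CPM per kilobase of merged exons (vertical axis, from 0) in NS and WS with the SD of 3 libraries as error bars, the genes ordered by their NS level. Eng stands highest, at 8.77 in NS and 10.6 in WS, and Tgfbr3 lowest, at 1.27 and 1.18.

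The order of the levels per kilobase was led by Eng, with 8.77 ± 0.989 CPM per kilobase (SD, n = 3) in NS and 10.6 ± 0.472 (SD, n = 3) in WS. Tgfbr1 followed at 4.92 ± 0.376 in NS and Tgfb3 at 4.55 ± 0.261, then Acvrl1 at 3.3 ± 0.192, Tgfbr2 at 2.97 ± 0.319, Tgfb2 at 2.68 ± 0.122, Tgfb1 at 1.91 ± 0.243 and Tgfbr3 at 1.27 ± 0.187 (SD, n = 3). Eng exceeded Tgfbr1 in 6 of 6 libraries with no overlap of their ranges, and so did Tgfb3 against Acvrl1 and Tgfb1 against Tgfbr3. The ranges of the neighbours Tgfbr1 and Tgfb3, Acvrl1 and Tgfbr2, Tgfbr2 and Tgfb2, and Tgfb2 and Tgfb1 overlapped over the 6 libraries, so their order is not set beyond the spread. The length is that of all annotated isoforms merged, and a gene expressed mainly as a shorter isoform would be given too low a level.

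The pathway around these genes was described by 5 lists of 43 genes, of which 38 were tested, and 0 of the 38 passed the thresholds by edgeR (1 had an unadjusted p under 0.05). Of the 38 log2 fold changes, 19 were above 0 and 19 below, with a median of 0.01. Ltbp3, a latent TGF-β binding protein that keeps the ligand in the matrix, was the gene with the unadjusted p under 0.05, and is named here after its values were seen. It had 29.4, 29.1 and 28.6 CPM in NS and 33.5, 33.9 and 34.2 CPM in WS, so the gap between the groups was larger than the spread within either (29.0 ± 0.374 against 33.8 ± 0.351, SD, n = 3 each). The log2 fold change of Ltbp3 was 0.22 (95% interval 0.03 to 0.41, adjusted p = 0.9998 by edgeR's quasi-likelihood test). The groups also did not overlap for Smad6, higher in WS, and for Bambi, lower in WS, both named after their values were seen. Smad6, an inhibitory SMAD of the BMP branch, had 3.03, 3.37 and 3.35 CPM in NS and 3.67, 3.46 and 3.54 CPM in WS. Bambi, a decoy receptor, had 4.48, 4.93 and 4.91 CPM in NS and 4.21, 3.84 and 4.29 CPM in WS. The 95% intervals of both log2 fold changes included 0, from -0.26 to 0.52 for Smad6 and from -0.57 to 0.14 for Bambi. Counts per library were low, 48 to 62 for Smad6 and 62 to 79 for Bambi. In all, 2 of the 38 were without overlap upwards and 1 downwards, beside 3.11% and 3.16% of all tested genes.

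By role, the median log2 fold change of the 9 tested genes of latency and activation was 0.05, and 5 were above 0. Their extremes were Thbs1, an activator of latent TGF-β, at 0.49 (95% interval -0.29 to 1.28, at 0.889 to 2.4 CPM) and Ltbp1 at -0.14. The 6 signal-carrying SMADs had a median of -0.05, with 1 above 0, and ranged from Smad1 at -0.08 to Smad9 at 0.09. The 10 tested inhibitors were balanced, with 5 above 0 and 5 below, from Tgif1 at -0.22 to Smad6 at 0.13. Of the 6 tested receptors of the BMP branch, 2 were above 0, from Acvr2a at -0.16 to Acvr2b at 0.04, with a median of -0.05. The 9 tested target genes had a median of 0.06 with 7 above 0, from Skil at -0.12 to Tgfb1i1 at 0.24 (95% interval -0.04 to 0.52). Skil and Pmepa1 stand in the lists of both inhibitors and targets. Ltbp2 was under the filter on low counts, and Itgb6, Smad7, Gdf2 and Bmp10 were not analysed here.

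**Figure D3:**
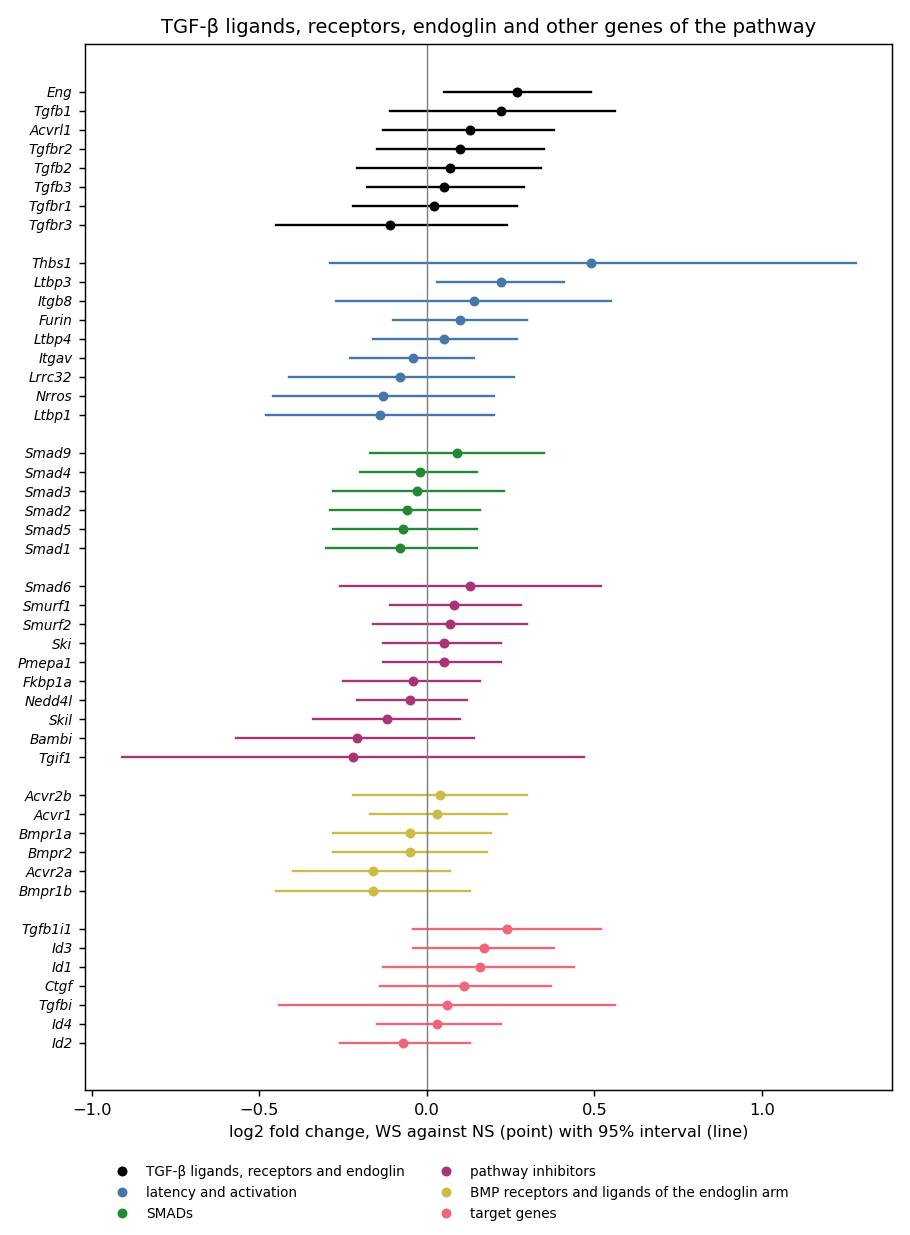
Log2 fold change of WS against NS (horizontal axis, points) with its 95% interval from edgeR's fit (lines) for the 8 genes and for the 38 tested genes of the 5 lists, each gene drawn in a single list. The intervals of Eng, from 0.05 to 0.49, and Ltbp3, from 0.03 to 0.41, lie above 0 and the others include 0.

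Since endothelial cells are known for Eng, Acvrl1 and Tgfbr2, these genes were set against 15 endothelial markers in the same library. Their bulk levels, that of Tgfbr2 among them, need not come from endothelial cells alone. In bulk tissue, fewer cells of a type and less RNA per cell cannot be told apart. The summed level of the 15 markers was 479.1, 476.9 and 540.2 CPM in NS and 554.5, 508.9 and 593.1 CPM in WS, and all 15 were detected in every library. The ranges overlapped, but the sum, like Eng, was higher in WS in each of the 3 same-numbered pairs. The largest part of the sum was Slc2a1, at 125 to 180 CPM. The median log2 fold change of the markers was 0.09 with 15 of 15 estimates above 0, the lowest being 0.0 after rounding. Over all tested genes the median was 0.0074, with 53.0% above 0. The log2 ratio of Eng to this sum was -3.91, -3.78 and -3.76 in NS and -3.64, -3.64 and -3.78 in WS, a mean difference of 0.13 between groups with SDs of 0.081 and 0.083 (n = 3 each, two-sided exact permutation p = 0.3). WS replicate 3 lay within the NS range of this ratio. The ratio of Acvrl1 differed by -0.02 and that of Tgfbr2 by -0.04 (two-sided exact permutation p = 1.0 and 0.8, n = 3 each), both less than the spread between libraries.

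Pecam1, the adhesion molecule CD31 of endothelial cells, was the only one of the 15 markers whose groups did not overlap. Of all tested genes, 3.11% had every WS library above every NS library. Pecam1 was also the only marker of the 15 with a larger log2 fold change than Eng (0.87, 95% interval 0.47 to 1.28, adjusted p = 0.8129 by edgeR's quasi-likelihood test). It had 17.2, 16.3 and 19.2 CPM in NS and 22.2, 33.0 and 41.5 CPM in WS. With Pecam1 left out of the markers, the log2 ratio of Eng to their sum differed by 0.16 between groups, against 0.13 with it. The two-sided exact permutation p was then 0.1, the smallest that 3 against 3 allow, against 0.3 (n = 3 each). The log2 ratio of Eng to Pecam1 was 0.89, 1.1 and 1.05 in NS and 1.01, 0.3 and 0.05 in WS. WS replicates 2 and 3 were below the NS range while WS replicate 1 lay inside it, so the groups overlapped (difference -0.56, two-sided exact permutation p = 0.2, n = 3 each).

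**Figure D4:**
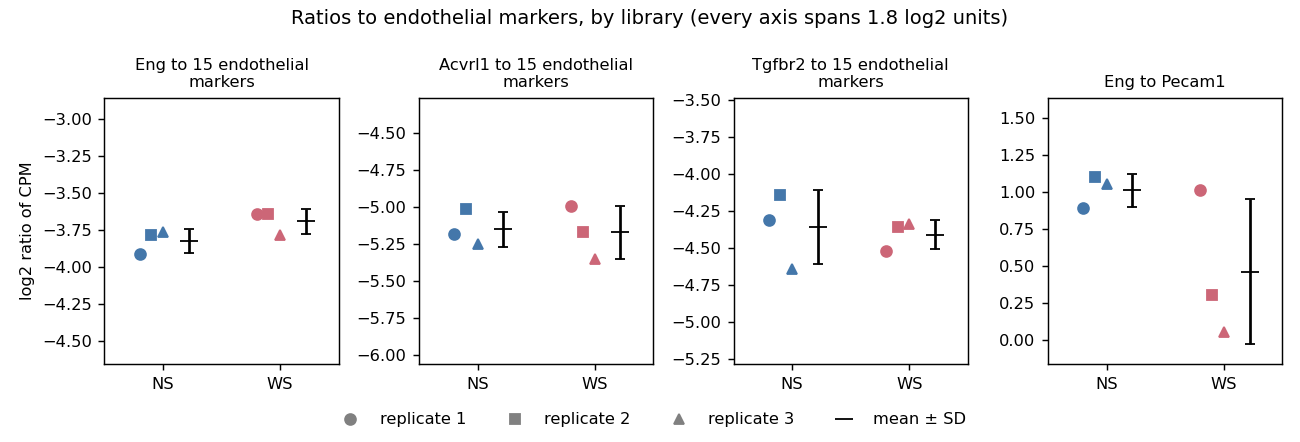
Log2 ratio of CPM (vertical axes of equal span) of Eng, Acvrl1 and Tgfbr2 to the sum of 15 endothelial markers, and of Eng to Pecam1, in each library, with the mean ± SD of 3 libraries in black. The ratio of Eng to the 15 markers averages -3.82 in NS and -3.69 in WS, and the ratio to Pecam1 is 0.3 and 0.05 in WS replicates 2 and 3.

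The spread of these genes was uneven over the libraries. WS replicate 1 held the highest value of 3 of the 8 genes (Tgfb3, Acvrl1 and Eng) and the lowest of 3 others (Tgfb2, Tgfbr1 and Tgfbr3), and WS replicate 3 held the highest value of Tgfb2, Tgfbr1 and Tgfbr2. The same libraries were extreme over the whole table, where WS replicate 1 was the highest library in 26.4% and the lowest in 25.8% of tested genes, and WS replicate 3 in 24.0% and 22.2%, against 10.4% to 15.2% for each of the other 4. The coefficient of variation within a group was larger than counting error gives for each gene in both groups, except for Tgfb2, Tgfb3 and Acvrl1 in NS.

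Marker levels of the cell types in the tissue are given as ranges of the summed CPM per library. Mural markers (10 genes) ran from 286 to 290 in NS and from 293 to 340 in WS, the highest in WS replicate 3. Microglia markers (10 genes) ran from 508 to 534 and from 540 to 559. Neither sum overlapped between groups. Every WS library was above every NS library in 3.11% of single tested genes, and a share over comparable sums was not computed. No mural or microglia marker had an unadjusted p under 0.05 in edgeR's fit. Astrocyte markers (10 genes) ran from 4590 to 5100 and from 4810 to 5940, and neuronal markers (8 genes) from 12100 to 12400 and from 11800 to 12500. Markers of the oligodendrocyte lineage (8 genes) ran from 7060 to 10200 and from 8350 to 11200, of meningeal fibroblasts (8 genes) from 188 to 218 and from 188 to 254, and of blood (6 genes) from 484 to 767 and from 603 to 639. The fibroblast sum is mostly Igf2, at 101 to 157 CPM, while 7 of the 8 fibroblast log2 fold changes were above 0 (median 0.16), beside 53.0% of all tested genes. In edgeR's fit 2 of the 8 had an unadjusted p under 0.05 and were higher in WS, as 0.866% of all tested genes were. Both are named here after their values were seen. Col1a2, a chain of type I collagen, had 23.3, 20.4 and 16.8 CPM in NS and 25.4, 24.7 and 23.7 CPM in WS. Col3a1, of type III collagen, had 6.37, 6.3 and 5.22 CPM in NS and 7.82, 6.8 and 10.3 CPM in WS. Both had every WS library above every NS library, which 3.11% of all tested genes showed, while the other fibroblast markers overlapped between the groups. Of the log2 fold changes of the other lists, 8 of 8 were above 0 for the oligodendrocyte lineage (median 0.19), 10 of 10 for astrocytes (0.13), 8 of 10 for mural cells (0.11), 9 of 10 for microglia (0.1), 6 of 6 for blood (0.05), 3 of 8 for neurons (-0.01) and 3 of 7 for choroid plexus (-0.03). The sums of the oligodendrocyte, mural and microglia markers were higher in WS in 3 of 3 same-numbered pairs, those of astrocytes and blood in 2, and those of neurons, fibroblasts and choroid plexus in 1. The 7 analysed choroid plexus markers ran from 39.9 to 93.5 in NS and from 12.4 to 116 in WS, with the lowest sum in WS replicate 1, while Ttr was not analysed here. No marker of these lists passed the thresholds, and their part in the values above was not tested. Totals per library lay between 15660395 and 17276168 counts.

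The genes with the most similar pattern were sought among 10868 other tested genes with at least 100 counts on average, by the root mean square difference of the log2 CPM standardized over the 6 libraries. For Eng they were Acin1 (0.17) and Sema4g (0.27), against a median of 1.4 over all candidates, and 7 candidates were under 0.3. Those of Tgfb1 were Efemp1 (0.13) and Cables2 (0.21), those of Acvrl1 were Gtpbp1 (0.1) and Arhgef10l (0.14), and those of Tgfbr2 were Tcf4 and Rnf213 (0.14 each). Tgfb2 was nearest to Gadd45g and Gca (0.12 each), Tgfb3 to Ipo13 (0.097) and Rab36 (0.17), and Tgfbr3 to Gnpda2 (0.1) and Snu13 (0.11). Tgfbr1, nearest to Smc3 (0.085) and Ttbk2 (0.086), had 98 candidates under 0.3. With 6 libraries and 10868 candidates, the names are a description of these libraries only.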

How the data were processed

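Bulk RNA-seq libraries of S1 cortex (3 NS, 3 WS) were analysed. Low-quality and rRNA reads were discarded by the authors before alignment with HISAT2, and their processing notes name mm10. The counting tool is not given in the sources used here. The authors deposited for each gene the mean and SD of its counts over 6 libraries (estimated counts, not scaled for depth) and a z-score for each library. They also deposited a p-value, a −log10 p and fold-change scores of their own comparison, which were not used, nor was their shorter table. The column taken as WS replicate 3 has an added letter in its name, and the authors' own WS mean includes it.

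The count of a library was computed back as mean plus z-score multiplied by SD and rounded. For the 8 genes the values lay within 0.043 of a whole number, and in 13418 of 14824 genes with an uncertainty under 0.1 count, 91.0% of values lay within 0.1 of one (20% by chance). The lowest chi-square per degree of freedom between libraries was 4.65, so each counted as 1 replicate. With totals of 15660395 to 17276168, precision rises with the count of a gene.

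The planned test on counts was kept for these computed counts, with edgeR 4.0.16 (TMM, filterByExpr, quasi-likelihood test; R 4.3.3) with Benjamini-Hochberg adjustment over all 13747 genes kept, with DESeq2 1.42.0 as an alternative and exact permutation tests in SciPy 1.17.1. CPM uses the TMM-normalized library size, ratios are log2 CPM without a pseudocount, and 95% intervals come from the edgeR fit. Steps were tested on simulated data. Same-numbered NS and WS libraries deviated together from their group means (r = 0.342, 0.228 and 0.124 over the 13747 genes, whose values are not independent). The replicate number was therefore also fitted as a block. The pairing rests on the numbers in the labels, and the exact permutation tests do not use it.

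Members, lists and tests were chosen with earlier results of these data known. Named are all 8 genes, the tested genes of each pathway list with the highest and lowest log2 fold change, any list gene past the thresholds (0 were) and the 2 nearest patterns of each of the 8, with Ltbp3, Smad6, Bambi, Pecam1, Col1a2 and Col3a1 named after their values were seen. Latency and activation held Ltbp1, Ltbp2, Ltbp3, Ltbp4, Itgav, Itgb8, Itgb6, Lrrc32, Nrros, Thbs1 and Furin. SMADs were Smad1, Smad2, Smad3, Smad4, Smad5 and Smad9, and inhibitors Smad6, Smad7, Smurf1, Smurf2, Ski, Skil, Tgif1, Bambi, Pmepa1, Nedd4l and Fkbp1a. The BMP branch held Gdf2, Bmp10, Bmpr2, Acvr2a, Acvr2b, Acvr1, Bmpr1a and Bmpr1b, and targets Ctgf, Id1, Id2, Id3, Id4, Tgfbi, Tgfb1i1, Smad7, Skil and Pmepa1. A further gene planned for the targets was left out of the list and its counts, and is not reported here. Positions and exon lengths came from GENCODE M21 on GRCm38. Alternatives were other normalizations, filters, DESeq2, the replicate block and each library left out.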

Additional observations from a re-analysis of the deposited data

How the results depend on the processing

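Under 7 alternatives (RLE, upper quartile or no normalization factors, no filter, a mean of at least 100 counts, DESeq2, and the replicate number as a block), the 8 log2 fold changes kept their direction and their side of the threshold in 56 of 56 values and moved by at most 0.009. With the replicate block, Eng had a log2 fold change of 0.27 and an unadjusted p of 0.0151 (edgeR, adjusted p = 0.9999), and the block changed no call of the 8 genes. Over all genes, 4 were called higher without the block and 6 with it, and 5 by DESeq2.

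With each library left out in turn, 0 of the 8 were called. Log2 fold changes lay between 0.2 and 0.36 for Eng, between 0.12 and 0.36 for Tgfb1, between 0.0292 and 0.18 for Acvrl1 and between 0.00839 and 0.18 for Tgfbr2. They crossed 0 for Tgfb2 (-0.00554 to 0.19), Tgfb3 (-0.00876 to 0.11), Tgfbr1 (-0.0734 to 0.11) and Tgfbr3 (-0.23 to 0.00676). The unadjusted p of Eng in edgeR's fit ran from 0.00731 to 0.112, and the number of the 8 under 0.05 from 0 to 2 (0 without NS replicate 1 or 2, and 2 without WS replicate 3). Over all genes, calls ranged from 0 to 6 upwards (0 without NS replicate 2 or 3) and from 0 to 1 downwards. Ligand shares differed by 0.99 (without WS replicate 2) to 3.61 percentage points (without WS replicate 3) for Tgfb1, by -2.79 to 2.19 for Tgfb2, and by -3.34 (without WS replicate 1) to -0.081 (without WS replicate 2) for Tgfb3. The log2 ratio of Acvrl1 to Tgfbr1 differed by -0.079 to 0.23, and that of Eng to Tgfbr3 by 0.25 (without WS replicate 1) to 0.52. The log2 ratios to the endothelial markers differed by 0.081 (without NS replicate 1) to 0.18 for Eng, by -0.11 to 0.065 for Acvrl1 and by -0.18 to 0.065 for Tgfbr2, and that of Eng to Pecam1 by -0.83 to -0.36 (without WS replicate 3). Without Pecam1 among the markers, the difference for Eng was 0.16. That for Acvrl1 was then 0.01, opposite in sign to the -0.02 with Pecam1. The list medians ranged from -0.04 to 0.07 for latency, from -0.09 to -0.0031 for SMADs, from -0.03 to 0.03 for inhibitors, from -0.16 to 0.05 for the BMP branch (0.05 without WS replicate 1) and from 0.02 to 0.2 for targets. The causes were not tested. Counting error was largest for Tgfbr3 and Tgfb1, with 113 to 206 counts per library.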
